A study of Mus musculus with 6 samples.

Results

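The genes described here are 48 mouse orthologues of human chromosome 21 genes that lie on mouse chromosome 16, between positions 84774123 and 97442936 of GRCm38. They were chosen by name from a list of such orthologues with relevance to the megakaryoblastic leukaemia of Down syndrome, and they are 48 of 53801 entries with an Ensembl identifier in the deposited read count table. The table paired identifiers with no names; 47 of the symbols matched GENCODE release M21 directly and 1, Dopey2, matched as its newer symbol Dop1b. Of the 48 genes, 44 had enough counts to be tested.

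RNA was sequenced from cells of the mouse fetal liver, an organ of blood formation, at E12.5 to E13.5 (days of embryonic development). All 6 libraries came from a Cas9-EGFP knock-in strain, given in the labels with the allele Gt(ROSA)26Sor and the code Fezh/J, in which the CAG promoter drives Cas9 with EGFP from the Rosa26 locus, and all 6 carried a guide RNA against Gata1 (sgGata1) and lentivirally delivered miR-125b. The labels call such cells Gata1s, the name of the short form of the megakaryocytic and erythroid factor GATA1. In 3 libraries the cells held a doxycycline-inducible construct of Arid3a, a DNA-binding factor of the ARID family, with a FLAG tag. In the other 3 they held an inducible construct that the labels name LUC, and both groups received doxycycline at 1 µg/mL for 48 h. The series asked how transcription differed once Arid3a-FLAG was induced in Gata1s cells that also express miR-125b. The control cells therefore shared the Gata1 guide, the miR-125b vector, the Cas9 allele and the doxycycline, and a group without any of these was not analysed here. The labels do not say how completely Gata1 was edited, whether the cells were a pool or a clone, or whether the 3 libraries of a group came from separate animals or cultures, so the p-values measure the spread between these libraries, which may be technical.

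People with Down syndrome carry an additional copy of chromosome 21, and in some newborns with it a transient leukaemia arises in fetal liver from megakaryocytic progenitors that carry GATA1 mutations leaving only the short protein. Genes of chromosome 21 are therefore candidates for a dosage effect in these cells, among them the kinase gene DYRK1A, the chromatin protein gene HMGN1, the interferon receptor genes and the microRNA gene MIR125B2. In the mouse the orthologues of chromosome 21 are spread over chromosomes 16, 17 and 10, with the longest stretch on chromosome 16. The cells here had the mouse complement of these genes, so the values describe how genes at the normal dosage differed between induced and control cells, with no trisomy in the design as labelled.

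The microRNA that all 6 libraries carried has a genomic copy, Mir125b-2, on mouse chromosome 16, outside the span of the 48 genes. Its mature 5p strand lies at chr16:77646279-77646300 on the plus strand of GRCm38.p6 (RefSeq), and is shown because the labels name miR-125b as a transgene of every sample. The seed, bases 2 to 8, is in capitals.
mmu-miR-125b-5p: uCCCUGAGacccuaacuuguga

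Library totals ran from 15728150 to 18249053 counts. The construct entry for tagged Arid3a, which was kept out of the tests, had 0 counts in all 3 LUC libraries and 3348, 3044 and 2758 counts in Arid3a-FLAG libraries 1, 2 and 3. Gata1 was counted at 264 to 318 CPM (counts scaled to a common library size with TMM factors) in LUC and at 320 to 332 CPM in Arid3a-FLAG, values that do not show the edit. LUC library 2 stood apart from the other LUC libraries along the second principal component, which held 24% of the variance. Marker genes of other cell types also moved between the groups. Summed CPM of 8 mast cell and basophil markers ran from 2794 to 3315 in LUC and from 2029 to 2686 in Arid3a-FLAG, and 3 of the 8 fell. Of their log2 fold changes, Arid3a-FLAG against LUC, 4 lay above 0 and 4 below. Summed CPM of 10 erythroid markers ran from 308 to 360 in LUC and from 447 to 572 in Arid3a-FLAG, with 2 of 8 tested markers higher, 1 lower and Slc4a1 at 0 in every library. Of 10 megakaryocyte markers, 4 rose, and their summed CPM overlapped between groups (6144 to 7644 in LUC and 6619 to 7082 in Arid3a-FLAG). Of 8 monocyte and neutrophil markers, 6 were tested, 1 rose and 1 fell, with sums of 32.8 to 37.6 CPM in LUC and 33.2 to 51.6 CPM in Arid3a-FLAG. The 6 lymphoid markers summed to 28.8 to 40.6 CPM in LUC and to 6.55 to 7.65 CPM in Arid3a-FLAG, and both tested markers, Nkg7 and Il7r, fell, with Rag1 at 0 throughout. Of 6 hepatocyte markers, 5 had at most 10 counts in every library, and Serpina1a and Ttr were at 0. The part of these shifts in the values below was not tested. In bulk libraries, fewer cells of a type and less RNA per cell cannot be told apart.

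Most of the 44 tested orthologues did not pass the test between Arid3a-FLAG and LUC. By edgeR's quasi-likelihood test, with Benjamini-Hochberg adjusted p under 0.05 across the 13631 genes tested, 2 of the 44 rose, 1 fell and 41 did not pass. The genes that rose were Itsn1, which encodes the endocytic scaffold intersectin 1, and Ltn1, which encodes the ubiquitin ligase listerin of ribosome quality control. The gene that fell was Cbr3, which encodes a carbonyl reductase. Over all tested genes, 3.43% rose and 3.87% fell (7.29% in either direction), so the shares of 2 and 1 of 44 lay near this background. The median log2 fold change of the 44 orthologues was 0.07, with 25 above 0 and 19 below, beside a median of -0.03 over all tested genes and of 0.01 over the 401 tested genes of chromosome 16, of which 17 rose and 17 fell. All fold changes are given as Arid3a-FLAG against LUC.

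**Figure D1:**
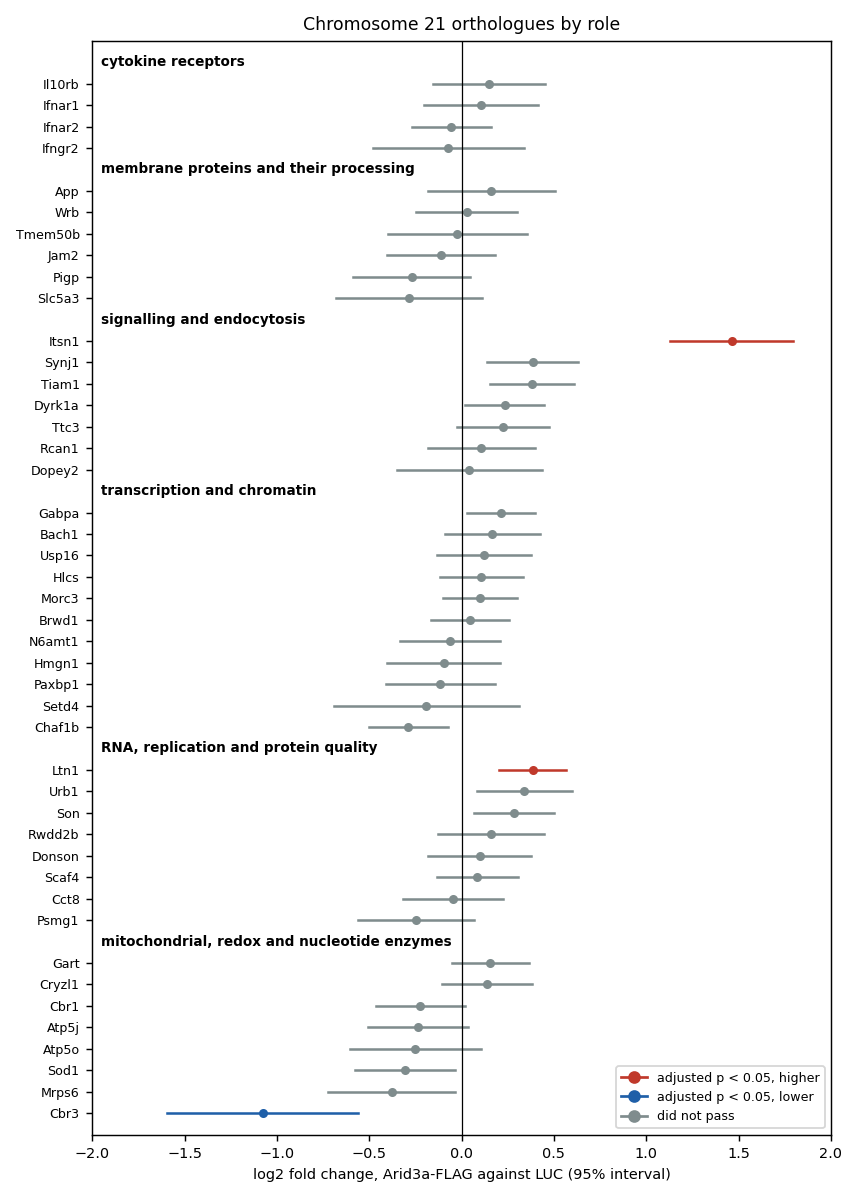
Log2 fold change (x axis, Arid3a-FLAG against LUC) of each of the 44 tested orthologues with its 95% interval (horizontal line), grouped by role. Itsn1 at 1.46 and Ltn1 at 0.38 (red) were the genes that rose and Cbr3 at -1.08 (blue) the gene that fell; the 41 grey genes did not pass the threshold.

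A larger number of orthologues had groups that did not overlap. In 10 of the 44, every Arid3a-FLAG library was above every LUC library, where 16.6% of all tested genes showed this, and in 4 every Arid3a-FLAG library was below, where 16.5% of all tested genes showed this. The 10 were Gabpa, Ltn1, Tiam1, Urb1, Synj1, Son, Itsn1, Hlcs, Ttc3 and Dyrk1a, and the 4 were Jam2, Sod1, Cbr3 and Chaf1b. At an unadjusted p under 0.05, 8 orthologues were higher and 4 lower, against 11.7% and 13.9% of all tested genes. The library LUC 2 was the highest of the 6 libraries for 12 of the 44 orthologues and the lowest for 13, more often than any other library. Without it, 7 orthologues rose by the same test (Gabpa, Gart, Itsn1, Ltn1, Son, Synj1 and Tiam1) and 1 fell (Cbr3), while the shares over all genes went to 8.52% higher and 7.83% lower.

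Signalling and endocytosis genes held the largest difference. Of the 8 listed, 7 were tested; 1 rose, none fell, and all 7 log2 fold changes lay above 0, with a median of 0.23. Dopey2 dropped below 0 once fold changes were corrected for exon length, and the median was then 0.16; without LUC 2 it was 0.18. Hunk, a kinase gene, had 2 counts in LUC 2, 1 in Arid3a-FLAG 2 and 0 in the other libraries, and was not tested.

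Itsn1 (ENSMUSG00000022957, chr16:91729281-91920597, plus strand) encodes a scaffold with EH and SH3 domains that links clathrin-coated pit formation to actin regulators. Its level was 6.23, 5.23 and 7.12 CPM in LUC libraries 1 to 3 and 17.1, 16.8 and 17.6 CPM in Arid3a-FLAG libraries 1 to 3. Every Arid3a-FLAG library was above every LUC library, and the Arid3a-FLAG values lay closer together than the LUC values. The mean was 6.19 ± 0.946 CPM (SD, n = 3) in LUC and 17.1 ± 0.437 CPM (SD, n = 3) in Arid3a-FLAG. This was a 2.76-fold difference, a log2 fold change of 1.46 with a standard error of 0.15, a 95% interval from 1.13 to 1.80 and an edgeR adjusted p of 0.000488. Each fit with a library left out also called the rise, 6 of 6, with log2 fold changes from 1.37 to 1.60, and the largest adjusted p among them was 0.00527. Per length the gene remained low, at 0.749 ± 0.187 TPM (counts per exon length, scaled to a common sum) in LUC and 2.24 ± 0.0497 TPM in Arid3a-FLAG (SD, n = 3), and its exons, 23425 bases in all, were the longest among the 48.

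The remaining signalling genes differed less. Tiam1, an exchange factor that activates the GTPase Rac1, was at 179, 160 and 202 CPM in LUC and at 246, 235 and 223 CPM in Arid3a-FLAG. The groups did not overlap, and the log2 fold change was 0.38 (standard error 0.10) with an edgeR adjusted p of 0.0501, just outside the threshold. It passed with RLE size factors, with no filter on low counts, without the 20 most abundant genes, without LUC 2, without LUC 3, in limma-voom and in DESeq2. It did not pass with the exon length correction, upper quartile factors, the replicate block or a minimum of 5 CPM in 3 libraries. Nor did it pass without LUC 1 or without any of the Arid3a-FLAG libraries, where the edgeR adjusted p reached 0.204. Synj1 encodes synaptojanin 1, a phosphoinositide phosphatase that acts in vesicle uncoating. It was at 33.0, 28.9 and 37.3 CPM in LUC and at 42.8, 41.8 and 45.0 CPM in Arid3a-FLAG, again without overlap (log2 fold change 0.38, standard error 0.11, edgeR adjusted p 0.0625). It passed with no filter, in DESeq2, and without LUC 2 or LUC 3. It passed in none of the other alternative fits, the exon length correction among them.

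Dyrk1a, the dual-specificity kinase gene often discussed for Down syndrome, was at 68.9, 62.6 and 76.7 CPM in LUC and at 78.9, 82.2 and 83.9 CPM in Arid3a-FLAG. The Arid3a-FLAG libraries were all higher, by a log2 fold change of 0.23 (standard error 0.10, edgeR adjusted p 0.162). Ttc3, a ubiquitin ligase gene, had a value of 0.22 (adjusted p 0.242). Rcan1, which encodes an inhibitor of the phosphatase calcineurin, had 0.11 (adjusted p 0.652), and Dopey2, a gene of membrane traffic, had 0.04 (adjusted p 0.905). Among 15 other calcineurin, NFAT and DYRK genes, 13 were tested and none rose or fell in edgeR, with a median log2 fold change of 0.09. At an unadjusted p under 0.05, 4 of them were higher and 1 lower; DESeq2 called 1 higher and 1 lower, limma-voom none, and edgeR without LUC 2 called 3 higher and 1 lower.

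**Figure D2:**
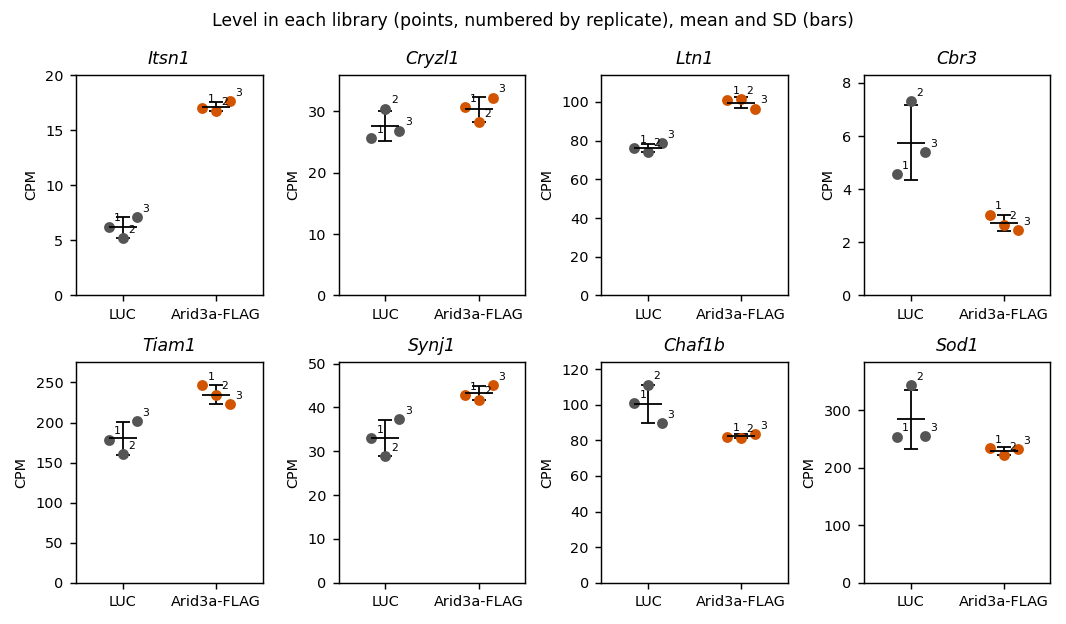
Level in CPM (y axis, from 0) of 8 orthologues in each library, with points numbered by replicate and black bars for the mean and SD of 3 libraries. Itsn1 lay at 5.23 to 7.12 CPM in LUC and 16.8 to 17.6 CPM in Arid3a-FLAG, while Cryzl1, the gene that starts beside it, overlapped between the groups; the highest Sod1 and Cbr3 values were those of LUC 2.

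Itsn1 shares its upstream region with Cryzl1, a quinone reductase-like gene on the other strand. The annotated starts, 91729281 for Itsn1 and 91728975 for Cryzl1, were 306 bases apart, and the pair is shown because the values of its members parted. Cryzl1 was at 25.6, 30.4 and 26.8 CPM in LUC and at 30.6, 28.2 and 32.2 CPM in Arid3a-FLAG, with overlapping groups and a log2 fold change of 0.14 (edgeR adjusted p 0.461). No other annotated gene shares exon bases with Itsn1, whereas 9.8% of the Cryzl1 exon bases overlap the antisense gene Gm10785. The ratio of Itsn1 to Cryzl1 counts was 0.172 to 0.266 in the LUC libraries and 0.548 to 0.595 in the Arid3a-FLAG libraries. The difference in log2 ratio was 1.34, with an exact two-sided permutation p of 0.1, the smallest that 3 libraries against 3 allow, and 0.133 after adjustment over the 4 neighbour pairs compared. Itsn1 alone had already separated the groups, by more than Cryzl1 varied, so the ratio had to separate them as well. Its p-value is therefore no further test. The 250 bases before the RefSeq start of each gene follow, from GRCm38.p6 and 5′ to 3′ on the strand of the gene, at chr16:91729121-91729370 (plus) for Itsn1 and chr16:91728803-91729052 (minus) for Cryzl1. Capitals mark the 50 bases nearest the RefSeq start, and 68 bases lie between both stretches on the chromosome. The RefSeq starts lie 90 bases (Itsn1) and 173 bases (Cryzl1) downstream of the GENCODE starts given above. All bases in capitals therefore lie inside the genes as GENCODE annotates them.
Itsn1: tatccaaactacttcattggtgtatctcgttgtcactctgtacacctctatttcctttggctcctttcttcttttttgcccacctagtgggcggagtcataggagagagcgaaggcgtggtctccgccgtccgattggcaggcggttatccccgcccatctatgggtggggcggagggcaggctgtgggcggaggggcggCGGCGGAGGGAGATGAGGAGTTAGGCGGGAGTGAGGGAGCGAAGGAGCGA
Cryzl1: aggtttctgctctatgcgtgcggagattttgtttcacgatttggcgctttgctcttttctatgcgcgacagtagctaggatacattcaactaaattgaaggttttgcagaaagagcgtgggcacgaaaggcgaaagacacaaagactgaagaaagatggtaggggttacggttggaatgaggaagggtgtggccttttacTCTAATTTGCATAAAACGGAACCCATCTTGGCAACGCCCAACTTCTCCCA

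RNA, replication and protein quality genes included the other gene that rose. All 8 were tested; 1 rose, none fell, and the median log2 fold change was 0.13, with 6 above 0 (0.16 without LUC 2 and 0.14 with exon length correction). Ltn1 (ENSMUSG00000052299, chr16:87376651-87432612, minus strand) encodes the ligase that tags unfinished proteins on stalled ribosomal subunits. It was at 76.1, 74.2 and 78.5 CPM in LUC and at 101, 101 and 96.4 CPM in Arid3a-FLAG. The groups did not overlap and each was narrow, with means of 76.3 ± 2.18 and 99.6 ± 2.75 CPM (SD, n = 3). The difference was 1.31-fold, a log2 fold change of 0.38 with a standard error of 0.08 and an edgeR adjusted p of 0.0206. With 1 library fewer the fold change stayed between 0.37 and 0.43, and the call was lost in 4 of 6 such fits, those without LUC 1 or without any of the 3 Arid3a-FLAG libraries, where the adjusted p reached 0.129. The bases before its RefSeq start, chr16:87432607-87432856 on the minus strand, are shown for comparison with the other orthologues that passed, with the 50 nearest the start in capitals.
Ltn1: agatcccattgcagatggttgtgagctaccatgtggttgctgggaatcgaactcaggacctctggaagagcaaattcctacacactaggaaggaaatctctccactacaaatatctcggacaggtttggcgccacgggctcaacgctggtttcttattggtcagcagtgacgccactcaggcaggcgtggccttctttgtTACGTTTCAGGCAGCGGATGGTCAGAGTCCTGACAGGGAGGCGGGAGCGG

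Among the other genes of this role, Son, which encodes a splicing cofactor of nuclear speckles, was at 354, 302 and 360 CPM in LUC and at 400, 424 and 413 CPM in Arid3a-FLAG. All Arid3a-FLAG libraries were higher (log2 fold change 0.28, edgeR adjusted p 0.106). Urb1, a ribosome biogenesis gene, showed the same order of groups, at 29.6 to 39.7 CPM in LUC and 42.6 to 44.8 CPM in Arid3a-FLAG (log2 fold change 0.34, adjusted p 0.101). Cct8 encodes a subunit of the CCT chaperonin, which folds actin and tubulin. It had the highest level per length of all 48 orthologues, at 424 ± 24.7 TPM in LUC and 454 ± 18.7 TPM in Arid3a-FLAG (SD, n = 3). Its CPM was 446, 559 and 410 in LUC and 479, 454 and 438 in Arid3a-FLAG, with LUC 2 as the highest library and a log2 fold change of -0.05 (adjusted p 0.841). None of the 7 other CCT subunits rose or fell, with a median of -0.08 and 0 at an unadjusted p under 0.05; 1 rose without LUC 2. Psmg1, a proteasome assembly gene, had the lowest value of the group at -0.25 (adjusted p 0.301), and Rwdd2b, Donson and Scaf4 had values between 0.09 and 0.16.

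Mitochondrial, redox and nucleotide enzymes had the lowest median of the 6 roles. Of 9 genes, 8 were tested. None rose, 1 fell, and 6 of 8 values lay below 0, with a median of -0.24. Before adjustment (edgeR p under 0.05) 0 were higher and 3 were lower. Without LUC 2, 1 rose (Gart) and 1 fell (Cbr3). The median was -0.10 without LUC 2 and -0.15 with the exon length correction. Cbr3 (ENSMUSG00000022947, chr16:93683215-93690990, plus strand) encodes a reductase of carbonyl compounds and quinones. It was at 4.56, 7.32 and 5.39 CPM in LUC and at 3.04, 2.67 and 2.45 CPM in Arid3a-FLAG, which were 79, 112 and 100 counts and 49, 46 and 39 counts. Every Arid3a-FLAG library was below every LUC library, and LUC 2 was the highest. The means were 5.76 ± 1.41 and 2.72 ± 0.30 CPM (SD, n = 3), a 2.11-fold lower level with a log2 fold change of -1.08, a standard error of 0.23 and an edgeR adjusted p of 0.0225. Without LUC 2 the log2 fold change was -0.86 and the gene still passed, with an adjusted p of 0.0217. The call was lost without any of the 3 Arid3a-FLAG libraries, where the adjusted p reached 0.0966, and the gene was too low to be tested at a minimum of 5 CPM in 3 libraries.

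Cbr1, the related carbonyl reductase gene, ends 72709 bases before Cbr3 on the same strand. It was at 31.1, 33.6 and 28.2 CPM in LUC and at 25.3, 26.0 and 28.2 CPM in Arid3a-FLAG, so that LUC 3 and Arid3a-FLAG 3 met (log2 fold change -0.22, edgeR adjusted p 0.223). The ratio of Cbr3 to Cbr1 counts was 0.147 to 0.218 in LUC and 0.0867 to 0.120 in Arid3a-FLAG, a difference in log2 ratio of -0.84 (exact two-sided permutation p 0.1, the smallest possible, and 0.133 adjusted over 4 pairs). This pair was chosen after its values were seen, with Cbr3 already lower in every Arid3a-FLAG library. Its p-values therefore do not test the pair. It also counted among the 4 pairs over which the other pairs were adjusted. The bases before the RefSeq start of Cbr3, chr16:93682969-93683218 on the plus strand, are shown as those of the orthologue that fell, with the 50 nearest the start in capitals.
Cbr3: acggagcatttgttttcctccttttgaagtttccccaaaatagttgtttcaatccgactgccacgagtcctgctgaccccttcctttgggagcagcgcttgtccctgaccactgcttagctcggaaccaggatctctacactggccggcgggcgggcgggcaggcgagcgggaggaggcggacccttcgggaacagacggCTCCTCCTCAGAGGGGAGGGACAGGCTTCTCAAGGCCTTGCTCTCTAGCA

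Sod1, the cytosolic copper-zinc superoxide dismutase gene, was at 254, 343 and 254 CPM in LUC and at 234, 222 and 232 CPM in Arid3a-FLAG. The groups did not overlap, but LUC 2 stood well above the other libraries (log2 fold change -0.31, standard error 0.12, edgeR adjusted p 0.148). Without LUC 2 the log2 fold change was -0.13. Among 14 other superoxide and peroxide enzyme genes, 13 were tested, 12 had values below 0 and 1 fell, the glutathione peroxidase gene Gpx1 (-0.55, adjusted p 0.0428), with a median of -0.23; DESeq2 called 2 lower. The part of LUC 2 in that median was not tested.

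A pair of ATP synthase genes belonged to this role. Atp5o encodes the subunit that links the catalytic head to the peripheral stalk, and was at 287 ± 44.7 TPM in LUC and 269 ± 11.0 TPM in Arid3a-FLAG (SD, n = 3), among the 3 highest levels per length of the 48 genes. Its CPM was 186, 270 and 161 in LUC and 181, 173 and 166 in Arid3a-FLAG. The groups overlapped and LUC 2 was the highest library (log2 fold change -0.25, edgeR adjusted p 0.358). Atp5j, which encodes a subunit of the peripheral stalk, had a value of -0.24 (adjusted p 0.250). The 14 other ATP synthase genes had a median of -0.25, 13 of them below 0, and none rose or fell in edgeR, DESeq2 or limma-voom, while 5 were lower and 0 higher before adjustment (p under 0.05). The part of LUC 2 and of exon length in that median was not tested. Mrps6, a mitochondrial ribosomal protein gene, had -0.38 (adjusted p 0.160), and 10.4% of its exon bases are shared with Slc5a3 on the same strand. Gart encodes an enzyme of several steps of purine synthesis, and had 0.16 (adjusted p 0.320). Antisense genes overlap 18.1% (Gm15976) and 17.5% (D430001F17Rik) of the Atp5o exon bases and 19.7% (Gm15964) of those of Gart, so these counts are uncertain to that extent. Among 10 other genes of purine synthesis 1 fell, Adssl1 (-0.57, adjusted p 0.0122), and the median was -0.02.

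Transcription and chromatin genes were the largest role, with 11 genes, all tested, and none rose or fell in edgeR, DESeq2 or limma-voom. At an unadjusted p under 0.05, 1 was higher (Gabpa) and 1 lower (Chaf1b). Their median log2 fold change was 0.05, and it was 0.09 without LUC 2 and -0.04 with the exon length correction. The smallest p belonged to Chaf1b, which encodes a subunit of the histone chaperone CAF-1 that loads histones on newly made DNA. It was at 101, 111 and 89.8 CPM in LUC and at 82.0, 81.5 and 83.5 CPM in Arid3a-FLAG. Every Arid3a-FLAG library was lower, with a log2 fold change of -0.29 (standard error 0.10, edgeR adjusted p 0.0946), and the gene passed in none of the 15 alternative fits. Of 8 other CAF-1 and histone chaperone genes none rose or fell, with a median of -0.06 and 0 at an unadjusted p under 0.05; 1 rose without LUC 2.

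Hmgn1, a nucleosome-binding protein gene, was among the 3 highest orthologues per length, at 274 ± 25.5 TPM in LUC and 285 ± 10.5 TPM in Arid3a-FLAG (SD, n = 3). It was at 287, 401 and 273 CPM in LUC and at 314, 292 and 291 CPM in Arid3a-FLAG. LUC 2 was the highest library and the groups overlapped (log2 fold change -0.10, edgeR adjusted p 0.703). Gabpa encodes the DNA-binding subunit of the ETS family factor GABP. It was at 80.2, 86.3 and 81.0 CPM in LUC and at 92.5, 100.2 and 94.3 CPM in Arid3a-FLAG, without overlap (log2 fold change 0.21, standard error 0.08, adjusted p 0.145), and it passed without LUC 2 with an adjusted p of 0.0222. Bach1, which encodes a haem-regulated repressor, had 0.17 (adjusted p 0.397). Of 12 genes repressed by BACH1, 11 were tested; Me1 rose (0.52, adjusted p 0.0316), Nqo1 fell (-0.46, adjusted p 0.0490), and the median was 0.09. In limma-voom 1 of them rose and 0 fell, and in DESeq2 3 rose and 1 fell. The remaining genes listed under this role, Brwd1, Hlcs, Morc3, N6amt1, Paxbp1, Setd4 and Usp16, had values from -0.19 to 0.12. Hlcs, which encodes a biotin ligase, was placed in this role by the list.

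Gabpa and Atp5j overlap at their starts, on opposite strands, by 700 bases of annotated sequence. Their count ratio was 0.403 to 0.526 in LUC and 0.595 to 0.666 in Arid3a-FLAG, a difference in log2 ratio of 0.44 (exact two-sided permutation p 0.1, 0.133 adjusted over 4 pairs). Overlapping exons make up 7.0% of Gabpa and 12.7% of Atp5j, and since the sources used here do not state strand use in counting, the reads of these parts cannot be assigned with certainty. Son and Gart, whose starts lie 554 bases apart on opposite strands, had a difference in log2 ratio of 0.13 with overlapping groups (exact two-sided permutation p 0.6). The 300-base windows of Gabpa and of the nearer Atp5j start in RefSeq share 247 bases. The 250 bases before the RefSeq start of Gabpa, chr16:84834874-84835123 on the plus strand, hold a match to the ETS core motif CCGGAAG. They are shown because GABP itself binds this kind of element. The match is on the minus strand and in capitals. This RefSeq start lies 199 bases downstream of the GENCODE start. The match lies between both starts, in the stretch where Gabpa and Atp5j overlap.
Gabpa: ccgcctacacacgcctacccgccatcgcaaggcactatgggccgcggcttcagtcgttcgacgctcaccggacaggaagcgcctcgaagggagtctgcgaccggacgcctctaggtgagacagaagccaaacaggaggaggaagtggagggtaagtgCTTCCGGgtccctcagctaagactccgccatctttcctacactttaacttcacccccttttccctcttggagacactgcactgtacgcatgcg

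**Figure D3:**
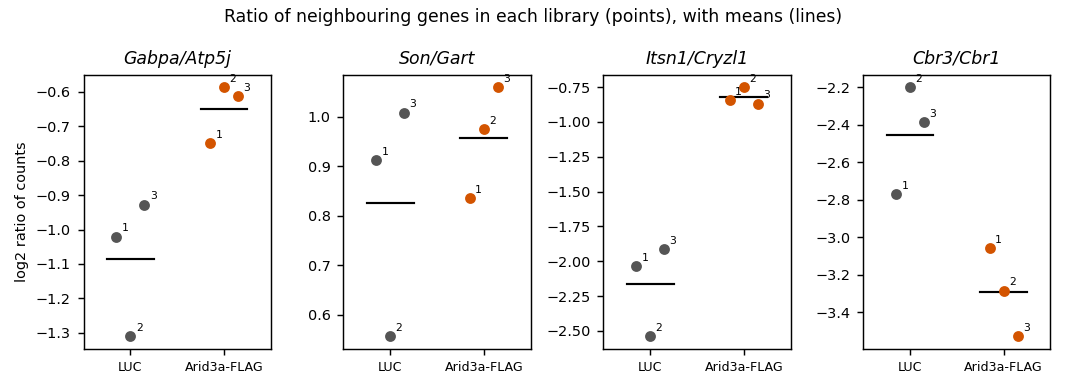
Log2 ratio of read counts (y axis) of 4 neighbouring gene pairs in each library, with points numbered by replicate and lines for the group means; the y axes differ between panels. The groups were apart for Gabpa/Atp5j, Itsn1/Cryzl1 and Cbr3/Cbr1 and overlapped for Son/Gart, where LUC 2 was the lowest library.

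Promoter windows of 300 bases, 250 before to 50 after a RefSeq start, were found for 42 of the 48 orthologues, with 1 window used for each, and 40 of the 42 genes were tested. Where an orthologue had more than 1 window, as 9 did, the window nearest its GENCODE start was used. The shares over all tested genes count every window of a gene, alternative starts included, so the selections differ. Motifs were searched as exact letters on both strands, and a base could count toward more than 1 motif. ATTAAA, a core of sites that ARID3A binds, was in 2.5% of the 40 windows (Ttc3) and in 7.63% of 12453 windows of all tested genes. ATCAAA, a variant of it, was in 5.0% (Cct8 and Tiam1) and 7.23%. The window of Tiam1 belongs to an alternative RefSeq start, 169070 bases from the GENCODE start of the gene. The GATA motif AGATAA was in 2.5% (Cbr1, in a window at a start 1984 bases from the GENCODE start) and 6.62%. The ETS motif CCGGAAG was in 27.5% of the 40 windows, those of Cct8, Chaf1b, Donson, Dopey2, Gabpa, Gart, Ifnar1, Psmg1, Setd4, Urb1 and Usp16, and in 17.7% of those of all tested genes. These 11 genes had log2 fold changes from -0.29 to 0.34, and none passed the threshold. The windows of Itsn1, Ltn1 and Cbr3 held none of the 4 motifs. A match describes letters in a window, and its absence says only that the letters are not there.

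Cytokine receptor genes form a cluster of 4 neighbours, and all 4 were tested. They encode subunits of receptors for type I interferon (Ifnar1, Ifnar2), interferon gamma (Ifngr2) and interleukin 10 (Il10rb). None rose or fell in edgeR, DESeq2 or limma-voom, and 0 were higher or lower at an unadjusted p under 0.05. The median log2 fold change was 0.02, or -0.02 without LUC 2. Il10rb had the smallest p, at 16.6, 16.1 and 13.2 CPM in LUC and at 18.5, 16.8 and 15.4 CPM in Arid3a-FLAG. Its groups overlapped (log2 fold change 0.15, standard error 0.14, 95% interval from -0.16 to 0.45, edgeR adjusted p 0.535). Ifnar1 was at 48.7, 37.4 and 55.2 CPM in LUC and at 55.8, 49.1 and 47.1 CPM in Arid3a-FLAG (0.10, adjusted p 0.679). Ifnar2 had -0.06 (adjusted p 0.756), with a 95% interval from -0.27 to 0.16, and Ifngr2 had -0.07 (adjusted p 0.837), with a wider interval from -0.48 to 0.34. Ifnar2 and Il10rb each share exon bases with the predicted gene Gm21970 on the same strand, 9.5% and 14.9% of their own, so their counts carry that uncertainty.

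Genes that act with or after these receptors moved in part. Of 12 partners and signal transducers of the receptors, all tested, none rose or fell in edgeR, with a median of 0.05. At an unadjusted p under 0.05, 3 of them were higher and 2 lower, and 1 fell without LUC 2. Of 22 interferon-induced genes, 19 were tested, with a median of 0.02, 10 values above 0 and 9 below. Before adjustment 1 was higher and 6 were lower (edgeR p under 0.05). None rose and 4 fell past the threshold, beside 3.87% lower over all tested genes. The 4 were Ifitm3, which encodes a membrane protein that restricts viral entry (-0.55, edgeR adjusted p 0.0315), Bst2, which encodes tetherin (-0.50, adjusted p 0.0314), and the immunoproteasome genes Psmb8 (-0.47, adjusted p 0.0269) and Psmb9 (-0.39, adjusted p 0.0425).

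Membrane protein genes and genes of their processing had 8 members, of which 6 were tested. None rose or fell in edgeR, DESeq2 or limma-voom, and 0 were higher or lower at an unadjusted p under 0.05. The median was -0.07, and -0.07 without LUC 2. Pigp, which encodes a subunit of the first enzyme of GPI anchor synthesis, had the smallest p. It was at 30.8, 41.7 and 28.4 CPM in LUC and at 29.2, 28.1 and 26.3 CPM in Arid3a-FLAG. The groups overlapped, with LUC 2 as the highest library (log2 fold change -0.27, standard error 0.14, edgeR adjusted p 0.265), and 16.4% of its exon bases are shared with Ttc3 on the opposite strand. App encodes the amyloid precursor protein, and was at 10.2, 12.3 and 14.7 CPM in LUC and at 14.1, 14.6 and 12.9 CPM in Arid3a-FLAG (0.16, 95% interval from -0.18 to 0.51, adjusted p 0.547). None of 14 genes of the APP family and its secretases rose or fell in any of these tools, with a median of -0.01; before adjustment 1 was higher and 3 were lower (p under 0.05).

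Jam2, an adhesion molecule gene, was lower in every Arid3a-FLAG library by a small margin, 9.86 to 11.0 CPM against 11.3 to 11.6 CPM (-0.11, edgeR adjusted p 0.639). Slc5a3, the myo-inositol transporter gene, had -0.28 (adjusted p 0.347), Wrb, a gene of tail-anchored protein insertion, had 0.03 (adjusted p 0.911) and Tmem50b had -0.02 (adjusted p 0.946). The 2 untested members of this role were Eva1c, with 0 counts in all 6 libraries, and Bace2, a protease gene of the APP pathway, with 3 to 10 counts in LUC and 5 to 12 in Arid3a-FLAG. Sh3bgr, listed with the redox enzymes for its thioredoxin-like fold, had 4 to 9 counts in LUC and 4 in each Arid3a-FLAG library, and was not tested either.

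Along the chromosome the 3 orthologues that passed were not neighbours of each other. In the 3 genes to either side of Itsn1 no orthologue passed, with log2 fold changes from -0.38 to 0.28, and the genes next to Ltn1 and Cbr3 did not pass either.

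**Figure D4:**
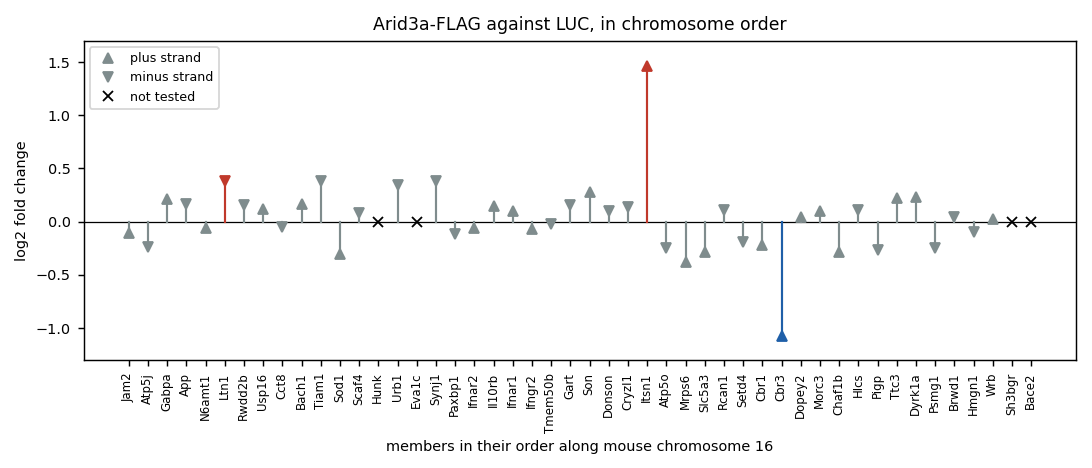
Log2 fold change (y axis, Arid3a-FLAG against LUC) of the 48 orthologues in their order along mouse chromosome 16 (x axis, order only, not to distance), with upward triangles for the plus strand, downward triangles for the minus strand, red and blue for genes that rose or fell and crosses at 0 for the 4 genes not tested. Itsn1 at 1.46 and Cbr3 at -1.08 stand apart from their neighbours among the 48, between -0.38 and 0.28.

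The fold changes moved with the length of the genes' exons. Across the 44 orthologues, Spearman's correlation of log2 fold change with exon length was 0.631, and across 13622 tested genes with a length it was 0.324; these are descriptions across genes, which share the same 6 libraries and are not independent replicates. Among the orthologues in the shortest quartile of all tested genes (up to 2343 bases), 0 of 5 had a value above 0, with a median of -0.27. In the next quartiles 4 of 12 and 8 of 13 did, and in the longest (from 6419 bases) 13 of 14 did, with a median of 0.23. All tested genes had medians of -0.21 and 0.09 in the shortest and the longest quartile. Without LUC 2 the correlation was 0.447 for the orthologues and 0.164 for all genes. A correction by a length curve fitted for each library left it at -0.0056 for all genes and at 0.301 for the orthologues. The correlation left among the orthologues was not tested. LUC 2 was the library whose deviations from the mean followed length most, with a Spearman correlation of -0.446. LUC 1 and LUC 3 had -0.0568 and 0.0665, and Arid3a-FLAG libraries 1, 2 and 3 had 0.176, 0.268 and 0.265. Every Arid3a-FLAG value lay above every LUC value, so the length trend and the group cannot be told apart in these libraries.

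The roles also differed in length: the signalling genes had a median exon length of 9890 bases and the mitochondrial, redox and nucleotide enzymes of 2842 bases. Signalling and mitochondrial medians were 0.23 and -0.24 as fitted, and 0.16 and -0.15 with that correction. After the correction Itsn1 and Ltn1 were the orthologues that rose and Cbr3 the one that fell, beside 4.48% higher and 4.72% lower over all genes. Among the 48 orthologues Cbr3 has the shortest exons, at 1254 bases, and Itsn1 the longest, at 23425 bases. With the correction Cbr3 had a log2 fold change of -0.87 (edgeR adjusted p 0.0241) and Ltn1 of 0.30 (adjusted p 0.0273). The part of RNA quality or library preparation in the relation with length was not tested.

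**Figure D5:**
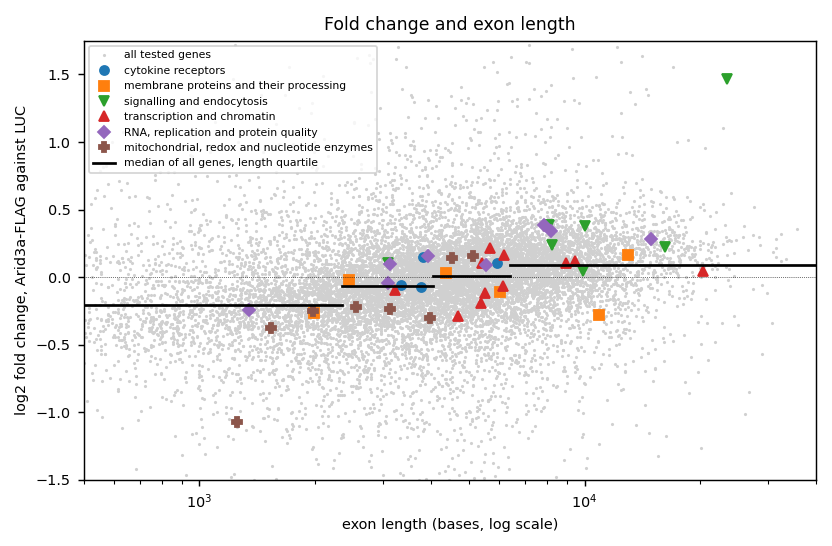
Log2 fold change (y axis, Arid3a-FLAG against LUC) against exon length in bases (x axis, log scale) of all tested genes (grey points, those beyond the axes not drawn) and of the 44 tested orthologues (coloured by role), with black lines at the medians of all genes in each length quartile. The medians run from -0.21 in the shortest to 0.09 in the longest quartile; Itsn1 at 1.46 and Cbr3 at -1.08 lie far from them.

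The other orthologues of chromosome 21 give a measure for comparison. On chromosome 16 outside the 48, 20 of 43 listed were tested. In edgeR 0 rose (1 in DESeq2 and 2 without LUC 2) and 3 fell, with a median of 0.10. Over all tested genes 3.43% rose and 3.87% fell, and without LUC 2 8.52% and 7.83%. At an unadjusted p under 0.05 in edgeR, 5 of the 20 were higher and 4 lower, beside 11.7% and 13.9% of all tested genes. The 3 that fell were Erg, an ETS factor gene (-1.11, edgeR adjusted p 0.000878), Samsn1 (-0.46, adjusted p 0.0183) and Fam3b (-2.05, adjusted p 0.00719). On chromosome 17, 15 of 23 were tested, with 1 higher (Ubash3a, 0.54) and a median of 0.05. In DESeq2 2 of these were higher, and without LUC 2 also 2. On chromosome 10, 24 of 31 were tested, with 1 lower (Pcbp3, -0.99) and a median of 0.09; 3 were higher and 1 lower in DESeq2, and 5 were higher and 1 lower without LUC 2. Whether the 48 differ from these lists was not tested.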

How the data were processed

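RNA was sequenced from 6 libraries of mouse fetal liver cells, 3 with Arid3a-FLAG and 3 with LUC. Per the submitters' processing notes, reads were handled with fastp, HISAT2 2.0.5 and featureCounts on build mm10, and the authors deposited raw read counts per gene, 1 whole number for each gene and library. The sources used here do not state their settings, the annotation release or strand use. Identifiers, coordinates and union exon lengths came from GENCODE M21 (GRCm38, the same assembly as mm10); 95 identifiers had no match and held at most 0.017% of a library's counts. The construct entry, at most 0.0209% of a library, was left out of totals and tests.

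The counts were fitted with edgeR 4.0.16 in R 4.3.3 (TMM, filterByExpr, glmQLFit and glmQLFTest, group only, two-sided, Benjamini-Hochberg over all 13631 tested genes, threshold 0.05). The standard error is the log2 fold change over the square root of F, and intervals are at the 95% level. CPM used TMM-scaled library sizes, and TPM divided counts by exon length. The script was tested on simulated data. Alternatives changed the scaling (RLE, upper quartile, or without the 20 most abundant genes), the filter (none, or a minimum of 5 CPM in 3 libraries), the tool (limma-voom from limma 3.58.1, DESeq2 1.42.0), the model (a replicate block), the libraries (without each in turn), the threshold (0.01) and, chosen after seeing the data, a lowess correction for exon length in each library. Library pairs of a group differed beyond sampling noise (chi-square per degree of freedom from 4.87 to 33.9), so none was counted as a duplicate.

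The 48 genes, their roles and the other lists were chosen with earlier results of these data known. By rule, every library's value is given for orthologues that passed, for the smallest p in each role without such a gene and for the 3 highest by TPM, and up to 4 genes that passed are named from each other list. Library values of further orthologues were added after their values were seen. Promoter and microRNA sequences came from RefSeq tables on GRCm38.p6.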

Additional observations from a re-analysis of the deposited data

How the results depend on the processing

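Itsn1 passed in all 6 fits without a library and in all 9 other fits. Over the 44 tested orthologues, the number higher with Arid3a-FLAG was 2 in the reported fit, 5 with no filter on low counts, 5 in DESeq2, 1 at an adjusted p under 0.01, and between 1 and 7 when each library was left out, with 7 without LUC 2. The number lower was 1 as reported, 0 with at least 5 CPM in 3 libraries, where Cbr3 was not tested, 0 at an adjusted p under 0.01, and between 0 and 1 when each library was left out. The median log2 fold change, 0.07 as reported, was 0.0946 with at least 5 CPM in 3 libraries, 0.0191 with the exon length correction, and between 0.0452 and 0.0948 when each library was left out. Other causes of these shifts were not tested.

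Of 659 comparisons of single orthologues with an alternative, 617 kept their direction and side of the threshold, 16 newly passed, 7 no longer passed and 19 changed sign. The sign changes fell on 11 genes that did not pass as reported, and 33 never changed sign. When each library was left out, the log2 fold change ran from -0.17 to 0.10 for Ifngr2, -0.16 to 0.11 for Tmem50b, -0.33 to 0.10 for Setd4, -0.11 to 0.11 for Cct8, -0.0224 to 0.26 for Ifnar1, -0.37 to 0.00917 for Atp5o, -0.15 to 0.20 for Dopey2, -0.17 to 0.11 for Hmgn1, -0.0605 to 0.12 for Wrb, -0.11 to 0.000342 for N6amt1 and -0.00376 to 0.10 for Brwd1. With the exon length correction it was 0.0155 for Cct8, 0.0747 for Tmem50b, -0.0584 for Dopey2 and -0.136 for Brwd1.

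The labels do not say that equal replicate numbers mark a shared animal or batch. Same-numbered libraries deviated with correlations of -0.103, -0.115 and 0.125, and not every library correlated best with its own number. A fit with a replicate block gave 2 higher, 1 lower and a median of 0.07, with no call changed. The filter on low counts left Hunk, Sh3bgr and Bace2 untested, and Eva1c had 0 counts in every library.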
